A study of Mus musculus with 4 samples.

Results

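The genes described are 9 small leucine-rich proteoglycans of the dermis: Dcn (decorin), Lum (lumican), Kera (keratocan), Bgn (biglycan), Fmod (fibromodulin), Prelp, Ogn (osteoglycin), Omd (osteomodulin) and Aspn (asporin), out of 21896 protein-coding genes. Every open-chromatin peak whose midpoint lay inside the mm10 span of a member gene, or within 50000 bp of it, was taken. This gave 165 of 585165 peaks in the knockout, 178 of 433013 in its control, 122 of 347438 in the rotenone library and 139 of 340240 in the vehicle library. ATAC-seq reads open chromatin through the cuts that the transposase Tn5 makes in it, and was done on dermal fibroblasts of C57BL/6 mice. The groups were Sod2-/- fibroblasts from a conditional knockout, set against Sod2+/+ control fibroblasts, and Sod2+/+ fibroblasts treated with rotenone at 250 µM, set against Sod2+/+ fibroblasts treated with vehicle. Sod2 encodes the mitochondrial manganese superoxide dismutase and rotenone inhibits respiratory complex I. All 4 libraries are labelled 100 days. The labels do not say what the days count, which Cre driver was used or how many animals were pooled.

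Small leucine-rich proteoglycans are secreted proteins of the extracellular matrix whose core is built of leucine-rich repeats. Many of them bind collagen and set the diameter and spacing of its fibrils, and decorin and biglycan also bind growth factors such as TGF-β. Decorin, biglycan and asporin belong to class I; fibromodulin, lumican, PRELP, keratocan and osteomodulin to class II; and osteoglycin to class III. Decorin and biglycan carry chondroitin or dermatan sulfate chains, while lumican, keratocan and fibromodulin can carry keratan sulfate. In skin, decorin and lumican are abundant products of fibroblasts, whereas keratocan is known mainly from the cornea. The genes stand in clusters in the mouse genome, with Dcn, Lum and Kera together on chromosome 10, Aspn, Omd and Ogn on chromosome 13 and Prelp near Fmod on chromosome 1, while Bgn lies on the X chromosome.

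The upstream sequences of Ogn, Prelp and Kera are shown because the peak at the first was strong (among the 30000 highest ranked of its library) in the knockout and rotenone libraries only, the peak at the second was strong in all libraries but the knockout, and the third had no peak in any library. Each is the 250 bases before the RefSeq gene start (GRCm38.p6), written 5′ to 3′ on the gene's strand. Capitals mark the bases that lay under a peak in all 4 libraries.
Ogn upstream, chr13:49607765-49608014, plus strand: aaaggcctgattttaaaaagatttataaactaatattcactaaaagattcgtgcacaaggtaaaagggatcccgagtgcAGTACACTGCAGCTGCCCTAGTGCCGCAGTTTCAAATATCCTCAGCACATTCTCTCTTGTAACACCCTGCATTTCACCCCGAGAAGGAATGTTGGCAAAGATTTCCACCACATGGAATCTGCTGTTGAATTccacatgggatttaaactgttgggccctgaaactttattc
Prelp upstream, chr1:133921402-133921651, minus strand: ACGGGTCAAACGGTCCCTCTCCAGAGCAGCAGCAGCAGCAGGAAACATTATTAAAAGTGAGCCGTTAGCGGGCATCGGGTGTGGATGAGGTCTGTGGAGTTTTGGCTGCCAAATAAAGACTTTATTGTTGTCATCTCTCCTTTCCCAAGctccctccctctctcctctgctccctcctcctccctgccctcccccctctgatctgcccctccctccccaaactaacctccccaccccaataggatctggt
Kera upstream, chr10:97606955-97607204, plus strand: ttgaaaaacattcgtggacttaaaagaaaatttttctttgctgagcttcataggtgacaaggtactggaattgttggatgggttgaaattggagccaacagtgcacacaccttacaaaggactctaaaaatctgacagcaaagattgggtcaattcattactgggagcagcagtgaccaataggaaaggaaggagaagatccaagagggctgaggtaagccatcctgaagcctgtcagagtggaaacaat
The shared peak stretch was 131 bp long at Ogn (49607844-49607974). At Prelp it covered 149 bp of the printed window. The RefSeq table held a start window for 7 of the 9 members; Dcn and Lum are without one. In windows of 300 bases around the start, searched on both strands, the AP-1 motif TGANTCA was found at 0 of the 7 members and in 7.81% of 32851 windows of all genes. The cAMP response element TGACGTCA (1.79% of all windows) and the RUNX motif TGTGGTT (5.27%) were also found at 0 members. The TEAD motif GGAATG, found in 14.7% of all windows, was present at Ogn alone, at 49607929-49607934 and so inside the capitals above. The TATA box TATAAA (13.6% of all windows) occurred at Ogn and Aspn, with 2 overlapping matches on opposite strands at Ogn. Those at Ogn lay 229 and 227 bases before the start, outside the capitals, and those at Aspn 207 and 178 bases before it. The GC box GGGCGG (35.7%) occurred at Bgn in 3 matches, of which 2 overlap. The CCAAT box (37.4%) occurred at Aspn, Fmod, Kera and Prelp. A match is a run of letters, not a bound site.

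The authors' lists rank peaks within a library, and read depth is unknown. A peak is called strong here when it was among the 30000 of its library with the highest −log10 p, so equally many strong peaks were taken from each list. The fold is the authors' enrichment of a peak over the background of its own library. Over all strong peaks its median was 5.49 in the knockout and 6.78 in its control, and 5.99 in rotenone and 7.13 in vehicle. Median widths were 293 and 376 bp, and 277 and 349 bp, in the same libraries. Folds of different libraries are therefore set side by side and not read as a change, and neither are ranks, given as places in the library's own order by −log10 p, since the lists differ in length. With 1 library per group there is no replicate check and no p-value, and intervals cover counting error only. A strong peak within 1000 bp of a gene end was present at 2 of 9 fibroblast markers in the knockout, 3 in control, 2 in rotenone and 3 in vehicle, with Col1a2 and Vim in all 4 libraries. It was present at 2 of 6 keratinocyte markers in each library and at 0 of the markers of myeloid cells, lymphocytes, skeletal muscle and pericytes. From 36.7% to 37.3% of all protein-coding genes had such a peak, and the share of fibroblast markers was below this in each library. The remaining marker lists had such peaks at 1 of 4 endothelial genes (Tek) in each library, at 2 of 5 melanocyte and Schwann cell genes (1 in rotenone), at Fabp4 of the 3 adipocyte genes in the knockout and rotenone, and at Sox9 of the 5 cartilage and tendon genes in all libraries but control. The part of other cells in the results was not tested.

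The strongest opening at any of these genes was a peak inside Dcn, present in all 4 libraries, whereas Lum and Kera, its neighbours, had no strong peak of their own body in any library. Strong peaks numbered 16 in the knockout and 12 in its control, and 17 in rotenone and 17 in vehicle. They made up 9.70% (95% Wilson interval 6.06 to 15.2) of the member peaks in the knockout, where strong peaks are 5.13% of the whole list, and 6.74% (3.90 to 11.4) in control, where they are 6.93%. In rotenone the share was 13.9% (8.89 to 21.2) beside 8.63% in the whole list, and in vehicle 12.2% (7.78 to 18.7) beside 8.82%. The intervals of control and vehicle span the share of their own list. The lower bounds of the knockout and rotenone lie just above theirs, though rotenone and vehicle both had 17 strong peaks. The intervals treat neighbouring peaks as independent. Leaving out peaks within 1000 bp of another gene's end left 13 strong peaks in the knockout and 14 in rotenone. Control then kept 9 and vehicle 13. Shares and intervals for these counts were not worked out.

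Merging the strong peaks of the 4 libraries gave 26 regions: 8 nearest to Prelp, 5 to Fmod, 5 to Bgn, 3 to Ogn, 2 to Dcn, 1 each to Lum, Omd and Aspn, and 0 to Kera. Only 6 lay inside a member gene, and 4 lay within 1000 bp of an end of another protein-coding gene. All 26 regions held a peak of some strength in every library, and 20 were among the 60000 highest ranked peaks of all 4 lists. Of the 26, 8 were strong in all 4 libraries, beside 46.1% of 42457 regions genome-wide. A further 3 were strong in the knockout and rotenone libraries only, beside 6.18% genome-wide, and 2 in control and vehicle only, beside 7.52%. Differences between libraries at these 26 regions are thus differences of rank within lists, not of presence. Presence was not particular to these regions, since the lists are long and reach down to weak peaks. In the comparisons below, from 0.0867% to 0.943% of all strong peaks overlapped nothing in the whole list of the other library. Genome-wide shares for the counts of 26 and 20 were not worked out.

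**Figure D1:**
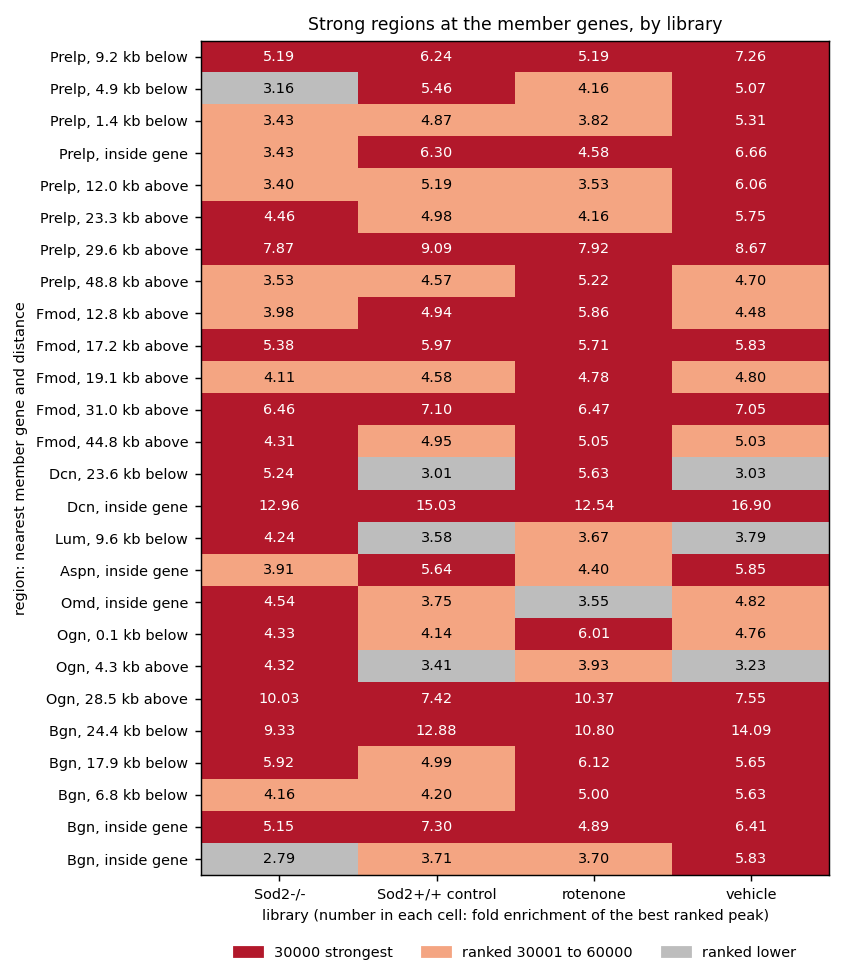
The 26 merged strong regions (rows, by nearest member gene and distance, where below and above mean lower and higher coordinates) in the 4 libraries (columns). The number in each cell is the fold enrichment of the best ranked peak and the colour its place in the library's ranking; 8 rows are strong in all columns, and the row 23552 bp below Dcn is strong in the knockout and rotenone columns only.

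At Dcn (chromosome 10, 97479500-97518163), which encodes the collagen-binding proteoglycan most abundant in dermis, the peak near the high-coordinate end of the gene was among the very strongest of each list. It spanned 97516533-97516801 in the knockout (fold 13.0, rank 1227) and 97516522-97516817 in control (fold 15.0, rank 1701). In rotenone it spanned 97516541-97516802 (fold 12.5, rank 1921) and in vehicle 97516534-97516809 (fold 16.9, rank 1389). Its midpoints in the 4 libraries lay within 4 bp of each other, and its widths ran from 262 to 296 bp. It lay 1494 bp inside that end of the gene; whether it falls in an exon or an intron is not told here. No strong peak stood within 1000 bp of either end of Dcn, where the best ranked peak of any library was that of rotenone at 97478709-97478785 (fold 3.24, rank 84716).

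A distal region on the low-coordinate side of Dcn, 23552 bp from the gene, separated the knockout and rotenone libraries from both controls. The knockout peak (97455740-97456157, 418 bp) had a fold of 5.24 and rank 17515, against a control peak with a fold of 3.01 and rank 96132. The rotenone peak (97455811-97456030, 220 bp) had a fold of 5.63 and rank 19510, against a vehicle peak with a fold of 3.03 and rank 123938. No protein-coding gene spans this region, and Dcn is the gene with the nearest end.

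Between Dcn and Lum, 9624 bp from Lum, a weaker region followed the same order less sharply. The knockout peak at 97555692-97556062 had a fold of 4.24 and rank 29387, only just inside the strong list, and the control peak a fold of 3.58 and rank 62666. The rotenone peak had a fold of 3.67 and rank 54584 and the vehicle peak a fold of 3.79 and rank 65947. Between rotenone and vehicle the folds are in the opposite order to the ranks.

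Lum (97565501-97572703), whose product lumican binds collagen fibrils, held 0 peaks inside the gene in the knockout, rotenone and vehicle libraries. In control it held 2, the better with a fold of 2.36 and rank 241577. Kera (97606962-97613688) held 1 inside the gene in the knockout, with a fold of 2.21 and rank 312802, and 0 in the other libraries. Within 50000 bp of Kera there were 13 peaks in the knockout, 16 in control, 10 in rotenone and 11 in vehicle, with 0 strong ones in each. Next to Kera, Epyc, the gene of the class III proteoglycan epiphycan, also held 0 strong peaks in each library.

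**Figure D2:**
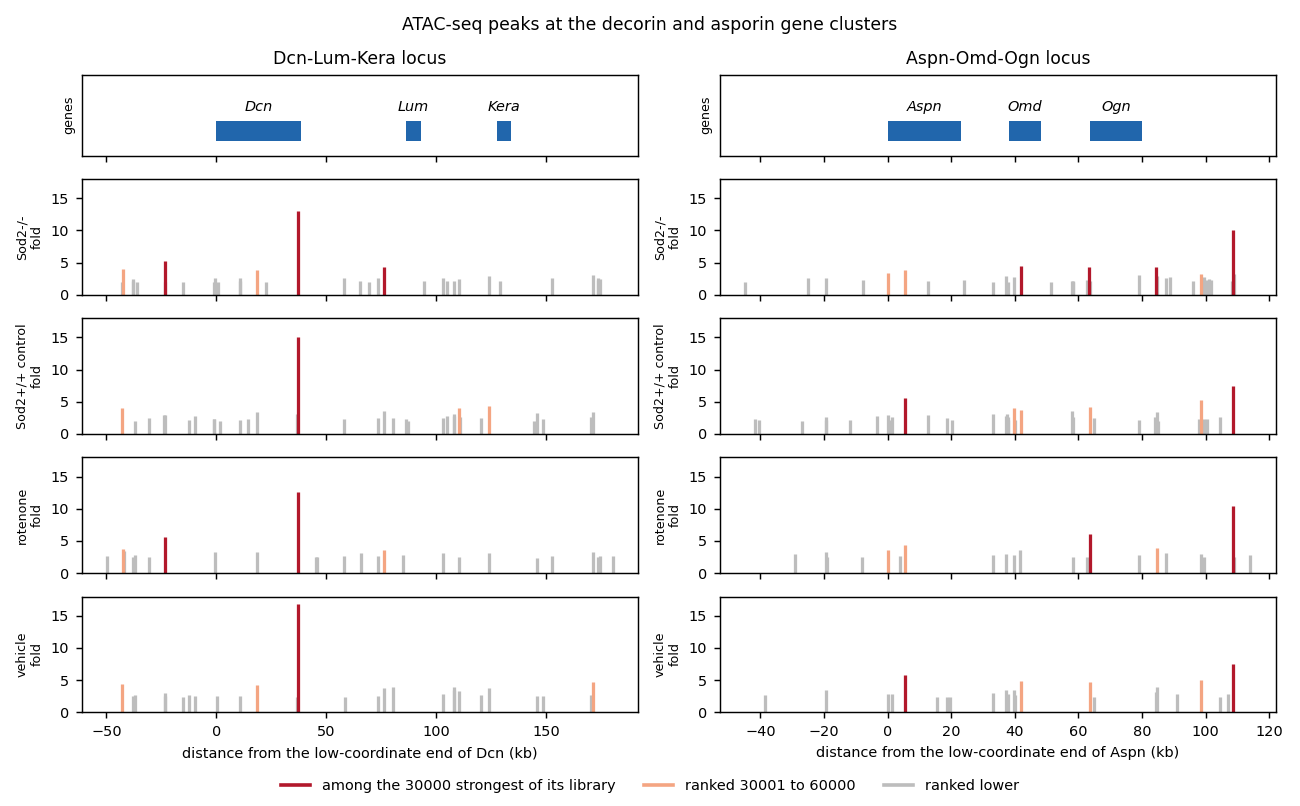
Peaks at the Dcn-Lum-Kera locus (left) and the Aspn-Omd-Ogn locus (right), with distance from the low-coordinate end of Dcn or Aspn in kb on the x axis and fold enrichment on the y axis, 1 row per library. Red bars are among the 30000 strongest peaks of their library. The bar inside Dcn, with folds of 12.5 to 16.9, stands far above all others of its cluster in every row.

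In the Aspn-Omd-Ogn cluster the peak at the Ogn start, printed above, was strong in the knockout and rotenone libraries and lower in the rankings of both controls. Ogn (chromosome 13, 49608015-49624501) encodes osteoglycin, a matrix protein also called mimecan. The knockout peak (49607828-49607974) had a fold of 4.33 and rank 29235, against a control peak (49607841-49607996) with a fold of 4.14 and rank 50059. The rotenone peak (49607844-49607978) had a fold of 6.01 and rank 16456, against a vehicle peak (49607844-49608033) with a fold of 4.76 and rank 41253. Their midpoints lay 114, 97, 104 and 77 bp before the start in these 4 libraries. The control and vehicle peaks were within the 60000 highest ranked, so the Ogn start is not counted as gained below.

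A region 4307 bp past the high-coordinate end of Ogn was strong in the knockout alone. The knockout peak (49628725-49628891) had a fold of 4.32 and rank 26816, and the control peak, which was 533 bp wide, a fold of 3.41 and rank 71314. In rotenone the fold was 3.93 and the rank 42771, and in vehicle 3.23 and 100643. The stretch was cut differently in the libraries. The control and rotenone peaks ran on to 49629281 and 49629360, where the knockout and vehicle had a separate second peak. That of the knockout (49628981-49629354) had a fold of 2.96 and rank 72375, and that of vehicle (49629062-49629297) a fold of 3.89 and rank 62132. Narrow peaks are thus set beside wider ones here. The region lies inside Cenpp, a gene of a centromere protein whose span covers the whole proteoglycan cluster.

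Inside Omd (49582462-49592612), which encodes a keratan sulfate proteoglycan known from bone, the best ranked peak of the knockout was at 49586116-49586352. Its fold was 4.54 and its rank 26423, against 3.75 and 59295 in control. The same place had a fold of 3.55 and rank 61256 in rotenone and 4.82 and 38328 in vehicle, so here rotenone did not side with the knockout. Aspn (49544443-49567565) encodes asporin, a class I protein with a run of aspartates. There the order of knockout and control was reversed, while rotenone again ranked below vehicle. The peak inside the gene had a fold of 3.91 and rank 33691 in the knockout, against 5.64 and 24992 in control (49549697-49549920). In rotenone it had a fold of 4.40 and rank 33136, against 5.85 and 27488 in vehicle (49549769-49549928). It was thus strong in control and vehicle and just below the strong list in the knockout and rotenone. At the Aspn start itself the order was the other way round, with peaks at rank 49851 in the knockout and 100360 in control, and at 54291 in rotenone and 177780 in vehicle, with folds of 3.42, 2.98, 3.67 and 2.77.

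At the far edge of the cluster, 28486 bp from Ogn and 37 bp from the end of Cenpp where Nol8 begins nearby, lay the best ranked peak of the locus. Its fold was 10.0 (rank 2944, 446 bp wide) in the knockout and 7.42 (rank 11890, 853 bp) in control. In rotenone the fold was 10.4 (rank 3679, 414 bp) and in vehicle 7.55 (rank 13001, 832 bp). The stretch was called as 1 peak in control and in vehicle, but in 3 peaks in the knockout and 2 in rotenone, of which the best ranked is given. Its width, fold and rank in those libraries are thus those of a piece set beside a whole. This gene end belongs to no proteoglycan. Ecm2, a leucine-rich repeat gene beside Aspn, held 0 strong peaks in each library.

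Prelp encodes a protein that anchors basement membrane to connective tissue. Of the 9 genes it had the most strong regions nearest to it, and vehicle held most of these. Within 50000 bp of it (gene at chromosome 1, 133910304-133930102) there were 3 strong peaks in the knockout and 4 in control, and 4 in rotenone and 7 in vehicle. Of these, 1, 2, 1 and 3 in the same order lay inside the neighbouring gene Optc. Inside Prelp itself there were 0, 1, 1 and 1. The peak at the Prelp start was strong in all libraries but the knockout. Its fold was 3.43 (rank 48134, 133921503-133921744) in the knockout and 6.30 (rank 21194, 133921491-133921759) in control. In rotenone it was 4.58 (rank 28727, 133921307-133921761) and in vehicle 6.66 (rank 20522, 133921479-133921764). Its midpoints lay 133 to 224 bp upstream of the start at 133921401, inside the gene's span, which RefSeq extends further upstream.

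A region 29604 bp above Prelp was strong in all 4 libraries, with folds of 7.87 (rank 6169) in the knockout and 9.09 (rank 7876) in control, and of 7.92 (rank 8030) in rotenone and 8.67 (rank 10444) in vehicle. A further 3 regions lay 1388 bp below (inside Optc), 11996 bp above and 23297 bp above the gene. At these the knockout ranked 48645, 50603 and 26614 and control 34806, 30224 and 33098. There rotenone ranked 47434, 57382 and 37970 and vehicle 29160, 23827 and 28547. Vehicle was strong at all 3, while control lay close below the limit of 30000. The last region, 48824 bp above Prelp, was strong in rotenone alone (fold 5.22, rank 22051), with ranks of 43685 in the knockout, 38435 in control and 41268 in vehicle.

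Optc, which encodes opticin, a class III relative known from the eye, adjoins Prelp and held 1 strong peak in the knockout and 2 in control, and 1 in rotenone and 3 in vehicle. These peaks are among those counted within 50000 bp of Prelp above. The peak shared by all 4 had folds of 5.19 and 6.24, and of 5.19 and 7.26, in these libraries. Another had a fold of 3.16 and rank 62561 in the knockout, against 5.46 and 22888 in control (133905249-133905561), and a fold of 4.16 and rank 37483 in rotenone, against 5.07 and 27763 in vehicle. It was strong in control and vehicle only.

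Fmod (134037254-134048280), the gene of fibromodulin, which binds collagen and takes part in its crosslinking, held 0 strong peaks inside the gene in each library. The best ranked inside it had folds of 2.25 (rank 281875) in the knockout and 3.85 (rank 54493) in control, and of 4.31 (rank 34250) in rotenone and 4.39 (rank 49829) in vehicle. All 5 strong regions nearest Fmod lay 12751 to 44845 bp past its high-coordinate end, towards Btg2, an antiproliferative gene, and 1 of them covered a Btg2 gene end. That Btg2 peak was strong in all libraries, with folds of 6.46 (rank 10659) in the knockout and 7.10 (rank 15433) in control, and of 6.47 (rank 11372) in rotenone and 7.05 (rank 17924) in vehicle. Of the others, the region at 17235 bp was strong in all 4 libraries, with folds of 5.38 in the knockout and 5.97 in control, and of 5.71 in rotenone and 5.83 in vehicle. The region at 12751 bp ranked 31281 in the knockout and 24306 in control, and 16547 in rotenone and 33803 in vehicle, so it was strong in control and rotenone. That at 19062 bp was strong in rotenone alone (rank 28171), with ranks of 30707 to 32768 in the other libraries. The region 44845 bp from Fmod was strong in the knockout (fold 4.31, rank 27865) and rotenone (fold 5.05, rank 22524) and just below the list in control (fold 4.95, rank 30722) and vehicle (fold 5.03, rank 35496).

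**Figure D3:**
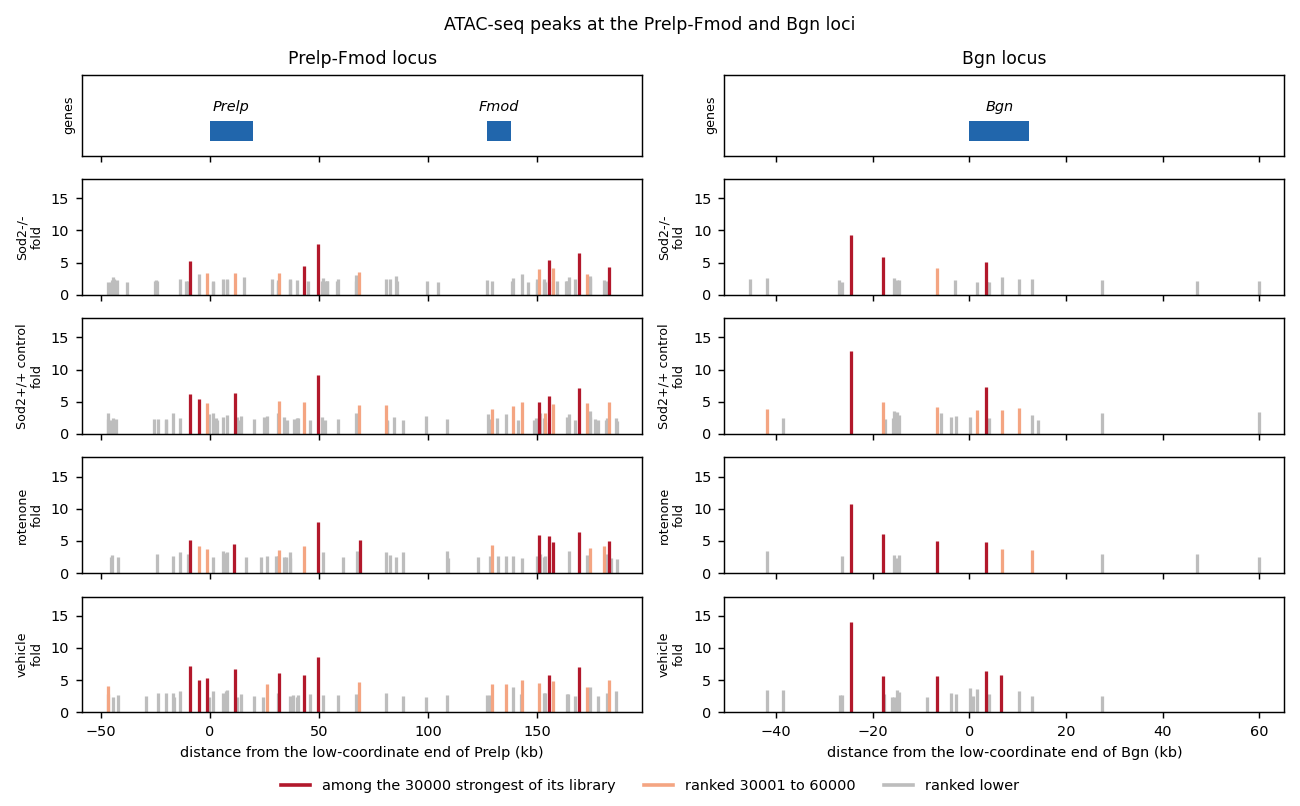
Peaks at the Prelp-Fmod locus (left) and the Bgn locus (right), drawn as fold enrichment against distance in kb from the low-coordinate end of Prelp or Bgn, 1 row per library, with red bars for the 30000 strongest peaks. Red bars are most frequent around Prelp in vehicle, with 7 within 50000 bp, and the tallest bar of the Bgn panel, 24435 bp below the gene, stands at an end of Haus7.

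Bgn (chromosome X, 73483601-73495936), the gene of biglycan, which resembles decorin and usually carries a pair of sugar chains, was open inside the gene rather than at its start. A peak 3443 bp from the start was strong in all 4 libraries. It had a fold of 5.15 (rank 19239, 210 bp) in the knockout and 7.30 (rank 14688, 342 bp) in control, and of 4.89 (rank 25461, 249 bp) in rotenone and 6.41 (rank 21218, 363 bp) in vehicle. Within 1000 bp of the start there was 0 peak in the knockout and in rotenone. Control had a weak one (fold 2.57, rank 166594), and so did vehicle (fold 3.78, rank 68814).

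A further peak inside Bgn, at 73490124-73490318, had ranks of 94259 in the knockout and 55178 in control, and of 53884 in rotenone and 27548 in vehicle, where alone it was strong (fold 5.83). Upstream of the gene, 17920 bp from it, a region was strong in the knockout (fold 5.92, rank 12560), rotenone (fold 6.12, rank 15135) and vehicle (fold 5.65, rank 28866), and ranked 30734 in control (fold 4.99). Another upstream region, 6764 bp from the gene, was strong in rotenone (rank 24390) and vehicle (rank 29137) and ranked 31136 in the knockout and 47589 in control. The best ranked peak in reach of Bgn, with folds of 9.33 in the knockout and 12.9 in control, and of 10.8 in rotenone and 14.1 in vehicle, lay 137 bp from an end of Haus7, which encodes a subunit of a microtubule complex. The X chromosome held 2.01% of strong peaks in the knockout and 2.10% in control, and 2.10% in rotenone and 2.10% in vehicle.

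At gene starts, a strong peak was found at 1 or 2 members in each library. With 7 genes to count, these numbers cannot set the members apart from all genes. Of the 7 members with a start in the RefSeq table, 1 had a strong peak within 1000 bp of it in the knockout (Ogn), beside 38.5% of 17491 genes, and 1 in control (Prelp), beside 38.3%. In rotenone there were 2 (Ogn and Prelp), beside 39.1%, and in vehicle 1 (Prelp), beside 38.2%. A peak of any strength was found at the start of 5 of the 7 in the knockout (72.3% of all genes) and 6 in control (71.5%), and at 4 in rotenone (68.4%) and 6 in vehicle (69.9%). At Omd the best start peak ranked between 79231 and 123215 over the 4 libraries, and at Fmod, where rotenone had none, between 90409 and 281875 in the other 3. Kera had none in each library.

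A strong peak was called gained when it overlapped, by 1 bp or more, none of the 60000 highest ranked peaks of the partner library, and lost in the reverse case. In the knockout against control, 3 of 16 strong peaks were gained (18.8%, 95% Wilson interval 6.59 to 43.0), beside 5.33% of all strong knockout peaks. They were the distal Dcn region, the region between Dcn and Lum, and the region past Ogn. Of the 12 strong control peaks, 1 was lost (8.33%, 1.49 to 35.4), beside 6.76% of all, and it was the peak inside Optc. In rotenone against vehicle, 1 of 17 was gained (5.88%, 1.05 to 27.0), again the distal Dcn region, beside 6.81% of all, and 0 of 17 were lost, beside 8.04%. In vehicle against control, 0 of 17 were gained (1.03% of all) and 0 of 12 lost (0.847%).

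All of these intervals contain the share over the whole list except that of the knockout gains, whose lower bound of 6.59% lies above 5.33%. The gains rest on a limit of rank: apart from the distal Dcn region, the control counterparts ranked 62666 and 71314, shortly past 60000, and the knockout counterpart of the lost peak ranked 62561. When partner peaks of any strength were allowed, 0 member peaks were gained or lost in the knockout (0.243% and 0.343% of all), in rotenone (0.773% and 0.943%) and in vehicle against control (0.11% and 0.0867%).

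With lists of 60000 against 120000, the order of gains and losses turned round. Then 0 knockout peaks were gained, beside 12.1% of all, and 8 of 37 control peaks were lost, beside 14%. The lost ones included 2 inside Bgn and 1 inside Fmod, with folds of 3.79, 4.04 and 3.85 in control. In rotenone 4 of 31 were gained, the distal Dcn region and the Aspn start among them, beside 15.6% of all, and 6 of 33 vehicle peaks were lost, beside 16.5%. Vehicle against control had 0 gained (4.08%) and 1 lost (3.45%). With lists of 15000 against 30000, 1 of 7 knockout peaks was gained, the region 17920 bp from Bgn, beside 4.9%, and 0 were lost (5.58%). There were then 0 gains (5.52%) and 0 losses (6.09%) in rotenone, and 0 gains (0.96%) and 0 losses (0.633%) in vehicle against control. No direction for the 9 genes as a group holds over these list lengths.

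In most ordered pairs of libraries, a smaller share of strong peaks overlapped at the members than over the whole list, so a low share was not particular to the knockout and control; the exceptions were control with rotenone and control with vehicle. The member counts are small. Of 16 in the knockout, 12 (75%) met a strong peak of rotenone, beside 82.5% over all strong knockout peaks, 8 (50%) one of control, beside 77.2%, and 10 (62.5%) one of vehicle, beside 76.0%. Of 17 in rotenone, 12 (70.6%) met one of the knockout, beside 82.0%, 10 (58.8%) one of control, beside 76.2%, and 11 (64.7%) one of vehicle, beside 75.6%. Of 17 in vehicle, 10 (58.8%) met one of the knockout, beside 75.1%, 11 (64.7%) one of rotenone, beside 75.2%, and 11 (64.7%) one of control, beside 85.9%. Of 12 in control, 8 (66.7%) met one of the knockout, beside 76.4%, 10 (83.3%) one of rotenone, beside 75.9%, and 11 (91.7%) one of vehicle, beside 85.9%.

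Counted per gene, strong peaks inside or within 50000 bp of a member ran from 0 at Kera in each library to 7 at Prelp in vehicle. The median over all protein-coding genes was 2 in the knockout, control and vehicle libraries and 3 in rotenone. Prelp in vehicle had more than 91.1% of genes, and Fmod in rotenone, with 5, more than 77.3%. Dcn had 3 in the knockout and 1 in control, and 2 in rotenone and 1 in vehicle; in control 64.6% of genes had more. Ogn had 4 in the knockout and 1 in control, and 2 in rotenone and 1 in vehicle. Neighbouring members share peaks, so these counts do not add up to those above.

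**Figure D4:**
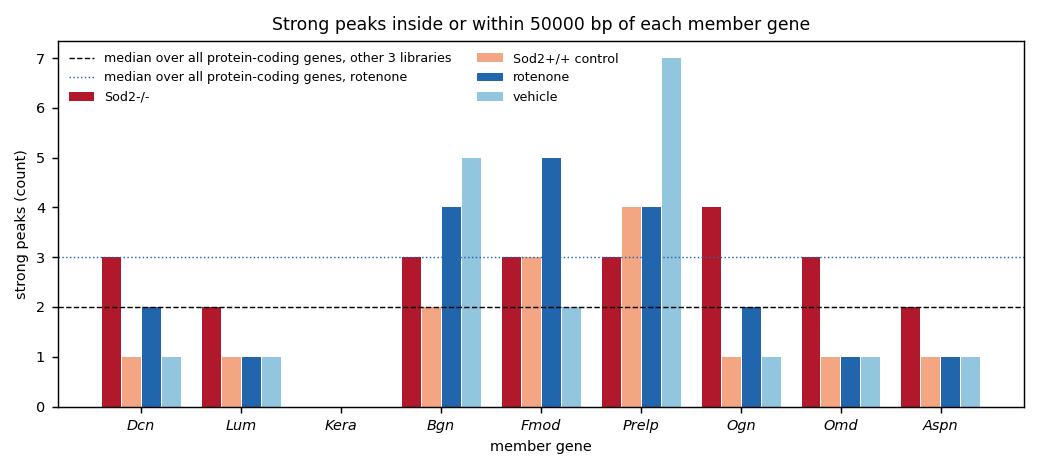
Strong peaks inside or within 50000 bp of each member gene (x axis) as a count (y axis), with 1 bar per library; the dashed and dotted lines mark the medians over all protein-coding genes, 2 and 3. Kera has 0 in every library, and Prelp reaches 7 in vehicle.

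Among genes that act with these proteoglycans, gains and losses within 50000 bp were counted gene by gene. The window searched is wider at a longer gene, and some listed genes are long, such as Xylt1 (117380979-117667630) and Csgalnact1 (68356781-68735621). The shares of all genes given beside were not matched for length, and whether a list differs from genes of like length was not tested. In the knockout, 4 of the 9 members had a gained peak (Dcn with 2, Lum, Ogn and Omd, which share peaks), beside 11% of all genes, and 1 (Prelp) a lost peak, beside 14.6%. Of 10 other small leucine-rich proteins, 0 had gains and 1 (Optc) a loss. Of 22 genes of chondroitin and dermatan sulfate synthesis, 1 had gains and 5 losses. Csgalnact1, whose enzyme adds N-acetylgalactosamine to the growing chain, lost 2, and Chst11, a chondroitin sulfotransferase gene, gained 2 and lost 1. Of 7 genes of keratan sulfate synthesis, 0 had a gain or a loss. Of 15 collagen partners and processing genes, 4 had gains and 4 losses, with 2 losses at Egfr, the gene of a receptor that decorin can bind.

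In rotenone, 1 of the 9 members (Dcn) had a gained peak, beside 13.8% of all genes, and 0 a lost one, beside 17.4%. The other small leucine-rich proteins had 0 of either. In the chondroitin and dermatan sulfate list, 5 genes had gains and 9 losses, with 2 losses at Xylt1, whose enzyme attaches the sugar that starts the chain on the core protein. In the keratan sulfate list 2 had gains and 1 a loss. Among collagen partners 2 had gains and 4 losses, with 2 losses each at Col1a2, Egfr and Adamts4, the last an aggrecanase gene. In vehicle against control, 0 members had either, beside 2.8% of all genes with gains and 2.06% with losses. In that comparison the chondroitin list had 2 genes with gains and 1 with a loss, and the collagen list 1 with a gain (Adamts4) and 0 with a loss. The median of gained minus lost peaks was 0 in each list and over all genes. Most of all genes had neither a gain nor a loss, so this median does not show a direction.

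The limit of 50000 bp left out a stronger peak close by. Inside it, the farthest strong peaks lay 44932 bp from Fmod in the knockout (fold 4.31) and 30977 bp in control (fold 7.10). In rotenone the farthest lay 48824 bp from Prelp (fold 5.22) and in vehicle 30971 bp from Fmod (fold 7.05). Those of control and vehicle were the Btg2 peak, well short of the limit. Just outside the limit, 51061, 51067, 51040 and 51089 bp from Fmod, each library had a peak with a fold of 7.67, 9.40, 7.39 and 8.67, in the order knockout, control, rotenone and vehicle.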

How the data were processed

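ATAC-seq peak lists of 4 libraries were used, 1 per group. Per the submitters' processing notes, the tools were Bowtie2, MACS2, bedtools and HOMER, on mm10. Their versions and settings, and whether reads were shifted for Tn5, are not given. The authors deposited 1 list per library without a header, read here as a MACS2 broad-peak list: fold enrichment is the authors' ratio over local background, and −log10 p and −log10 q are the authors' values. The deposited score was not used. The weakest listed peaks have a q near 0.1.

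Starts were made 1-based. Peaks were ranked by −log10 p, then fold. Gene positions came from RefSeq GRCm38.p6. At Dcn and Lum, both gene ends stood in for the start. Protein sequences and exons were not used here. The members and gene lists were chosen with earlier results of these data known. Named were all 9 members, related genes inside their windows and list genes with 2 or more gained or lost peaks; Btg2, Haus7, Cenpp and Nol8 were named after their values were seen. The overlap code was run on each list against a copy with 200 strong peaks deleted, and recovered 200 of 200. Peaks of a list do not overlap each other, so this checks the code only. It does not cover peaks shifted or split between libraries. Alternatives were list length, ranking by fold, window size, overlap rule and start window. Python 3.11.15, numpy 2.4.6, pandas 2.3.3, statsmodels 0.14.6 and matplotlib 3.10.9 were used.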

Additional observations from a re-analysis of the deposited data

How the results depend on the processing

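Of 92 alternatives to 14 counts, 58 stayed within 1.5 times and 34 did not. Lists of 15000 and 60000 gave 7 and 29 strong peaks in the knockout, 6 and 37 in control, 6 and 31 in rotenone and 5 and 33 in vehicle, since list length itself sets how many peaks are taken. Gains in the knockout were 1 and 0 at these lengths and losses 0 and 8. Gains in rotenone were 0 and 4, and with 60000 its losses were 6. With 60000, vehicle against control had 1 loss. With partner peaks of any strength, and with partner lists of equal length (340240 peaks, an alternative chosen after seeing the data), knockout gains and losses and rotenone gains were each 0. Rotenone losses were 1 when ranking by fold and 1 with 50% of the peak covered. Shares over all strong peaks were not worked out for these rules or for partner lists of equal length. Members with a strong start peak were counted here over all 9 genes, with either gene end at Dcn and Lum. They numbered 0 in each library with lists of 15000. With 60000 they were 3 in the knockout, 2 in control and 2 in vehicle. With a start window of 2500 bp they were 2 in each of these, since it reaches the peak near the high-coordinate end of Dcn. Whether that end is the Dcn start is not told by the reference used, so this is not counted as a known start peak. Shares over all genes with these list lengths and this window were not worked out. Leaving out peaks within 1000 bp of an end of another gene, also chosen after seeing the data, left 13 strong peaks in the knockout, 9 in control, 14 in rotenone and 13 in vehicle. No paired analysis was possible because each group has 1 library and no test was made. Read depth is not given, which limits every rank, and no group has a replicate.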
